A study of Mus musculus with 24 samples.

Results

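The genes described here are 10 genes of the major histocompatibility complex (MHC) class I and class II systems: H2-K1, H2-D1, B2m, Tap1 and Nlrc5 for class I, and H2-Aa, H2-Ab1, H2-Eb1, Cd74 and Ciita for class II. They were chosen by symbol, not by their values, and are 10 of the 21878 gene symbols in the table of counts. All 10 passed the filter on low counts that left 13121 genes for testing. They were read in poly(A) RNA libraries of single-cell suspensions from 21 thymic lymphomas and 3 normal thymus samples of female B6C3F1 mice. The lymphomas arose after whole-body irradiation with carbon ions, given as 4 doses of 1.6 Gy, 1 dose per week, from an age of 4 to 5 weeks. Of the lymphomas, 11 carried Ikzf1 mutations (TL2, TL4, TL7, TL9, TL10 and TL12 to TL17) and 10 did not (TL18 to TL22, TL30 to TL32, TL34 and TL35). The same irradiation label also stands on the thymus samples (Thy-1 to Thy-3), although their titles call them normal; the titles carry a mark, 7W, that the labels do not explain. Each lymphoma is a separate tumour sample, and nothing in the labels says whether the thymus samples came from separate mice, so p-values measure only the spread between these samples.

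Class I molecules carry peptides made inside the cell to the surface of nearly all nucleated cells, where CD8 T cells read them. H2-K1 and H2-D1 encode the heavy chains, B2m the light chain that every classical heavy chain needs, and Tap1 a subunit of the transporter that brings peptides into the endoplasmic reticulum. Class II molecules are pairs of an alpha chain (H2-Aa) and a beta chain (H2-Ab1, H2-Eb1) that carry peptides from the endosome on B cells, dendritic cells, macrophages and thymic epithelium, and Cd74 encodes the invariant chain that guides them there. Nlrc5 and Ciita are the transactivators of the class I and class II genes. Neither binds DNA by itself; both are recruited to a shared promoter module, in which an X2 box and an inverted CCAAT element (the Y box) are bound by CREB-family factors and by NF-Y. In mice, thymocytes carry class I molecules and little class II.

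The promoter module can be read in the reference sequence, and is shown because the description below sets these genes against Nlrc5 and Ciita. Promoter windows (250 bases before to 50 after the start, RefSeq, GRCm38.p6) were matched for 6 of the 10 genes: H2-K1, H2-D1, B2m, Tap1, H2-Aa and H2-Eb1. The pattern searched, on both strands, was TGANG followed after 15 to 30 bases by ATTGG, and it was found in 5 of the 6 windows and in 3.73% of 32851 promoters of the same length. In the stretches below, each in the direction of transcription, capitals mark both parts of the pattern.
H2-K1, chr17:34000344-34000408, minus strand: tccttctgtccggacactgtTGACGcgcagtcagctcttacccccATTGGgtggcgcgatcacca
H2-D1, chr17:35262970-35263037, plus strand: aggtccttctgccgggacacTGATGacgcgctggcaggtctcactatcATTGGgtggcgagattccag
B2m, chr2:122147589-122147653, plus strand: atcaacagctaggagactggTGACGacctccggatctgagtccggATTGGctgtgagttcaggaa
H2-Aa, chr17:34287852-34287917, minus strand: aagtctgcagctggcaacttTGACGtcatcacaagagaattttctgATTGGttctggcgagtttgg
H2-Eb1, chr17:34305761-34305827, plus strand: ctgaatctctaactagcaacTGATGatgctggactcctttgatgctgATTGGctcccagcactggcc
The bases between the marked parts number 20 in H2-K1 and B2m, 21 in H2-Aa, 22 in H2-Eb1 and 23 in H2-D1. H2-D1 and H2-Eb1 each hold 2 matches: a second TGANG starts 3 bases after the marked one and overlaps it, with 20 bases between the parts in H2-D1 and 19 in H2-Eb1. The Tap1 window does not hold the spaced pattern in these letters, although it holds each of ATTGG, found in 37.4% of all promoters, and TGACG, found in 20.8% and overlapping the first part of the pattern. These matches are letters in a reference window and were not tested for binding.

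Before the values, a limit of the tables touches 6 of the 10 genes. B6C3F1 mice carry one chromosome set from C57BL/6 (H-2b) and one from C3H (H-2k), and the build used for counting, GRCm38.p6, is C57BL/6 sequence. Around the MHC on chromosome 17, a stretch of 1.69 Mb from Ndufa7 to Tcf19 (chr17:33824572-35516824, GRCm38) was almost empty in all 24 libraries. Of its 101 protein-coding genes, 4 had a mean of at least 10 TPM (a level scaled for gene length and library size) in lymphomas and 6 in thymus. Among the 101 genes before it, 49 reached that level in lymphomas and 48 in thymus, and among the 101 genes after it 16 in each. The stretch held 0.0117 to 0.0468% of a lymphoma library's counts and 0.0186 to 0.0404% of a thymus library's. Its bounds were chosen after the values were seen.

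The emptiness was not particular to immune genes, and it was not uniform. Brd2, a bromodomain protein gene transcribed in most cells, had a mean of 0.0509 TPM in lymphomas and 0.0611 TPM in thymus. Rxrb, a nuclear receptor gene, had 0.0934 TPM in lymphomas and 0.0594 TPM in thymus, and Ring1, a Polycomb gene, had 0.0345 and 0.11 TPM in lymphomas and thymus. Also inside the stretch, Rps18 had 541 TPM in lymphomas and 384 TPM in thymus, and H2-Q4 had 58.5 and 132 TPM. Next to the stretch on one side, Rps28 had 74.1 TPM in lymphomas and 18.9 TPM in thymus. On the other side the edge was less sharp: Cchcr1, the next gene, had 2.31 TPM in lymphomas and 2.89 TPM in thymus, and the first gene to reach 10 TPM was Vars2, with 12.1 TPM in lymphomas and 20.2 TPM in thymus. H2-K1, H2-D1, Tap1, H2-Aa, H2-Ab1 and H2-Eb1 lie inside the stretch; B2m (chromosome 2), Nlrc5 (8), Ciita (16) and Cd74 (18) lie elsewhere. What emptied the stretch was not tested, and the levels of the 6 genes inside it are what was counted, not how much RNA the cells held. In addition, H2-K1 shares 8.11% and H2-D1 14.3% of their 50-base stretches with other genes, so reads of those parts may be split between copies, and the start of Tap1 overlaps that of Psmb9, which lies on the other strand. Whether counting used the strand is not stated in these sources.

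**Figure D1:**
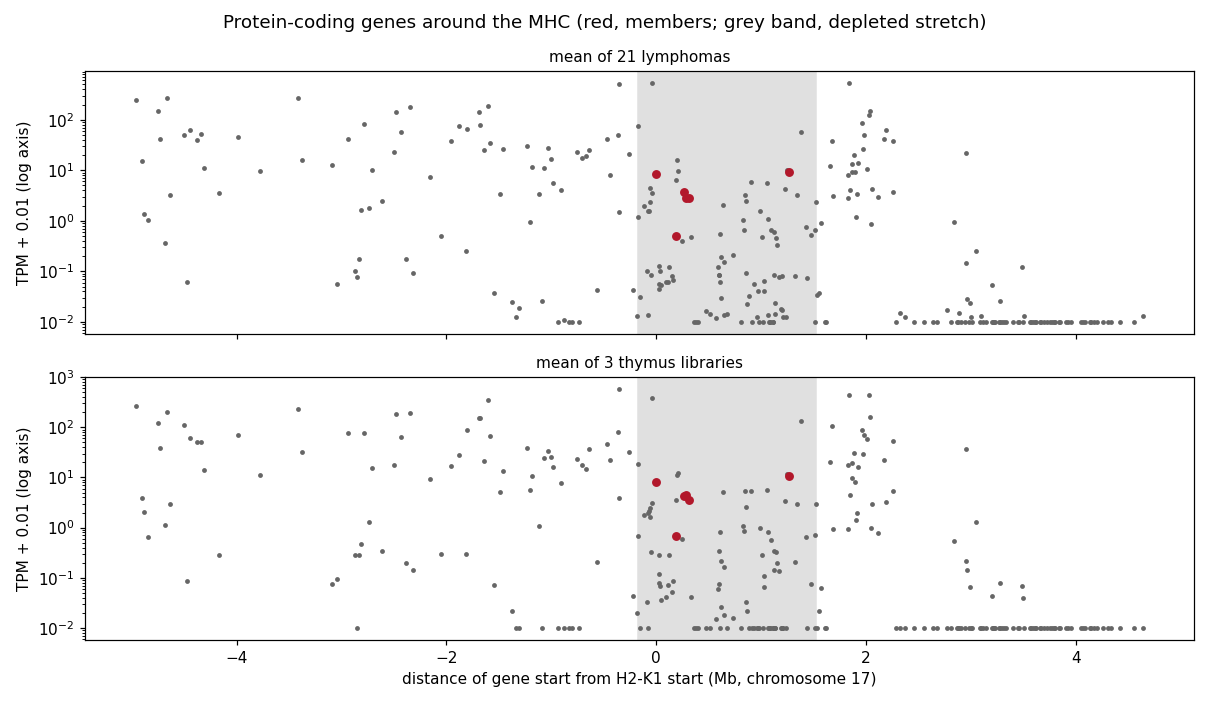
Mean level (TPM + 0.01, log axis) of each protein-coding gene on chromosome 17 against the distance of its start from that of H2-K1 (Mb), in 21 lymphomas (top) and 3 thymus libraries (bottom). Red points are the 6 MHC genes described here, and the grey band is the stretch of 1.69 Mb in which 4 of 101 genes in lymphomas and 6 of 101 in thymus reached 10 TPM.

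Levels between genes were compared on the TPM scale. In lymphomas the mean was 2390 TPM for B2m, 341 for Cd74, 9.21 for H2-D1, 8.46 for H2-K1, 6.22 for Nlrc5, 3.66 for H2-Ab1, 3.04 for Ciita, 2.84 for H2-Eb1, 2.81 for H2-Aa and 0.486 for Tap1. In thymus it was 1740 TPM for B2m, 301 for Cd74, 17.5 for Nlrc5, 10.9 for H2-D1, 8.09 for H2-K1, 4.37 for H2-Aa, 4.3 for H2-Ab1, 3.48 for H2-Eb1, 2.72 for Ciita and 0.665 for Tap1. In thymus the ranges of B2m, Cd74 and Nlrc5 did not overlap each other and that of Tap1 lay below all the others, while those of H2-D1 and its neighbours down to Ciita overlapped in a chain. In lymphomas the spread was wider, and only B2m and Cd74 had a lowest library above the mean of every gene below them. The light chain therefore stood far above the heavy chains counted: the ratio of B2m to the sum of H2-K1 and H2-D1, both in TPM, was 46 to 341 in lymphomas (median 193) and 66.3 to 120 in thymus. Both heavy chains lie in the emptied stretch and B2m does not.

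Against thymus, none of the 10 genes passed the test over all 21 lymphomas (edgeR quasi-likelihood test, Benjamini-Hochberg adjusted p under 0.05), where 30.8% of all tested genes did. None had an unadjusted p under 0.05. DESeq2 also called 0 of the 10, and limma-voom, limma on log2(TPM + 1) and limma on log2(TPM + 0.1) each called 1, Nlrc5. The median log2 difference was -0.19 for the 5 class I genes and -0.16 for the 5 class II genes, beside 0.07 for all tested genes. For the genes inside the stretch the intervals were wide: for H2-K1, the log2 difference was 0.11 with a 95% interval of -1.26 to 1.49. Levels are described gene by gene below in CPM (a gene's counts scaled to library size with TMM factors). For every member but H2-Aa and H2-Ab1, some lymphomas lay above the thymus range and some below it, for Nlrc5 with TL7 alone above. A range over 21 libraries tends to be wider than a range over 3, and the spread was not tested.

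**Figure D2:**
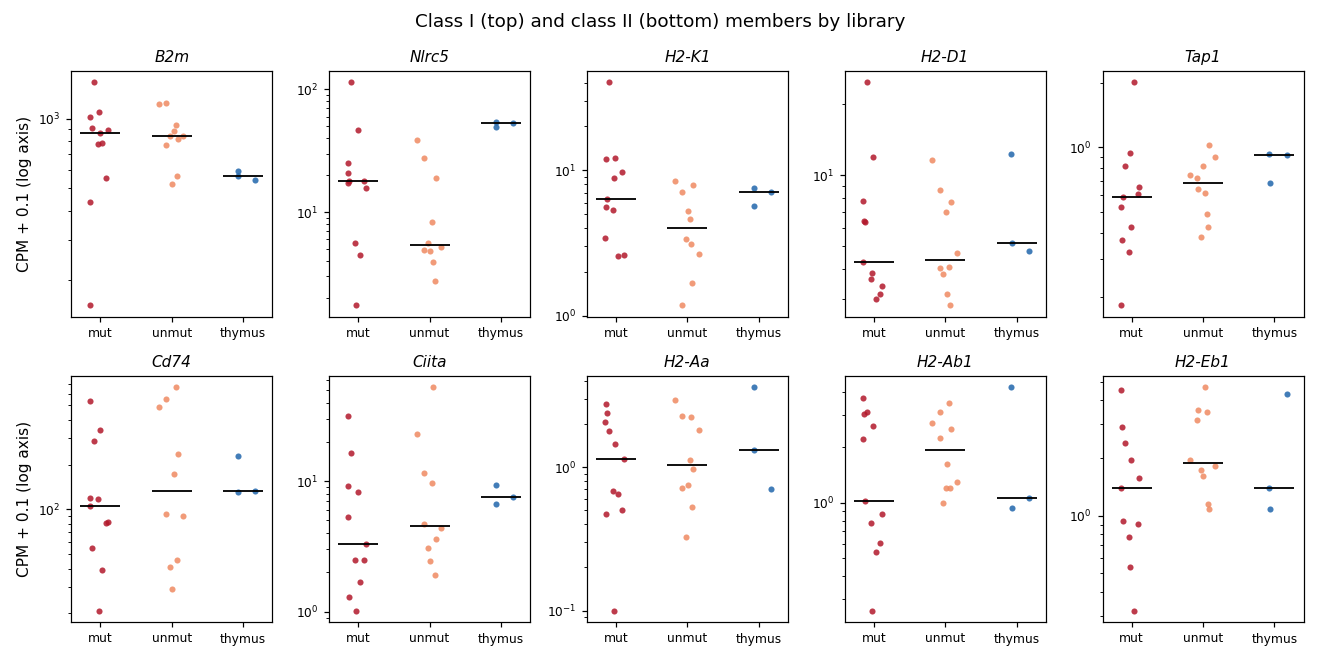
Level of each of the 10 genes by library (CPM + 0.1, log axis) in 11 Ikzf1-mutated lymphomas (mut), 10 unmutated lymphomas (unmut) and 3 thymus libraries; bars are medians. Nlrc5 lies at 49.5 to 54.5 CPM in thymus and below that range in 20 of 21 lymphomas, while Ciita and Cd74 spread above and below thymus.

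B2m, the light chain, was the most abundant member. It ranged from 156 through a median of 865 to 1440 CPM in mutated lymphomas and from 521 through 844 to 1170 CPM in unmutated lymphomas, against 543, 594 and 565 CPM in Thy-1, Thy-2 and Thy-3. It was above the thymus range in 16 of 21 lymphomas and below it in 3. The log2 difference between all lymphomas and thymus was 0.55 (SE 0.35, adjusted p = 0.236, edgeR). The lowest library was TL12, at 156 CPM, and the next was TL14, at 437 CPM. TL12 was not low in the other class I members in the same way: it had 3.31 CPM of H2-K1, where the mutated set had a median of 6.2 CPM, and 4.2 CPM of H2-D1, which equals that set's median. The highest library was TL7, at 1440 CPM.

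Nlrc5, the class I transactivator, lay under the thymus range in all lymphomas but TL7. It ranged from 1.64 through 17.9 to 115 CPM in mutated lymphomas and from 2.65 through 5.31 to 38.6 CPM in unmutated lymphomas, against 53.4, 54.5 and 49.5 CPM in Thy-1, Thy-2 and Thy-3. All 10 unmutated lymphomas and 10 of 11 mutated lymphomas lay below every thymus library, and TL7 lay above. Nlrc5 was thus not lower in every lymphoma than in every thymus library, as 7.93% of all tested genes were. The share of genes lower in all lymphomas but 1 was not counted. The log2 difference was -1.43 (SE 0.77, adjusted p = 0.158, edgeR) over all lymphomas, and -1.84 (adjusted p = 0.0263) without TL7.

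Within the sets, Nlrc5 fell against thymus in the unmutated lymphomas, with a log2 difference of -2.13 (SE 0.79, adjusted p = 0.0401, edgeR). It was the 1 member of 10 called there, where 35.4% of all tested genes were called, and its call was lost when any thymus library, or any of TL20, TL21, TL22, TL30, TL31, TL32 and TL34, was left out (adjusted p of 0.0521 to 0.102). In the mutated lymphomas its log2 difference was -1.0 (SE 0.81, adjusted p = 0.379), and 0 of the 10 members were called, where 26% of all tested genes were. None of the members had an unadjusted p under 0.05 there; DESeq2 called 0 and limma-voom 1, Nlrc5.

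H2-K1 and H2-D1, the 2 classical heavy chains, had low counts in every library. H2-K1 ranged from 2.47 through 6.2 to 40.3 CPM in mutated lymphomas and from 1.08 through 3.9 to 8.35 CPM in unmutated lymphomas, against 7.03, 7.46 and 5.59 CPM in Thy-1, Thy-2 and Thy-3. H2-D1 ranged from 2.91 through 4.2 to 24.6 CPM in mutated lymphomas and from 2.72 through 4.28 to 11.5 CPM in unmutated lymphomas, against 4.66, 12.2 and 5.08 CPM in thymus. TL7 was highest for both, as it was for B2m and Nlrc5, and the groups overlapped for both. In thymus, H2-D1 in Thy-2 was 2.61 times that in Thy-1, and without Thy-2 the log2 difference over all lymphomas turned to 0.39 (adjusted p = 0.727), where it was -0.19 (SE 0.53, adjusted p = 0.809, edgeR) with it.

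Tap1, the peptide transporter subunit, had 2 to 35 counts per lymphoma and 16 to 23 per thymus library. It ranged from 0.0832 through 0.487 to 1.92 CPM in mutated lymphomas and from 0.282 through 0.579 to 0.927 CPM in unmutated lymphomas, against 0.825, 0.829 and 0.585 CPM in thymus. The log2 difference was -0.38 (SE 0.51, adjusted p = 0.602), with a 95% interval of -1.37 to 0.62.

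On the class II side, Cd74 and Ciita varied together and widely. Cd74, the invariant chain, ranged from 20.8 through 105 to 535 CPM in mutated lymphomas and from 29.2 through 134 to 662 CPM in unmutated lymphomas, against 132, 227 and 130 CPM in Thy-1, Thy-2 and Thy-3. Ciita, the class II transactivator, ranged from 0.918 through 3.19 to 31.7 CPM in mutated lymphomas and from 1.8 through 4.44 to 52.5 CPM in unmutated lymphomas, against 7.42, 9.32 and 6.61 CPM in thymus. For Ciita, 6 lymphomas were above the thymus range and 13 below it, and for Cd74 7 were above and 13 below. The log2 difference was 0.29 (SE 0.83, adjusted p = 0.82) for Cd74 and 0.28 (SE 0.94, adjusted p = 0.85) for Ciita.

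The 4 lymphomas highest in Cd74 were among the 5 highest in Ciita. TL20 had 662 CPM of Cd74 and 52.5 CPM of Ciita, TL18 had 548 and 11.5 CPM, TL16 had 535 and 31.7 CPM, and TL35 had 485 and 22.9 CPM; TL7 had 286 and 16.4 CPM. TL4 was lowest in both, at 20.8 CPM of Cd74 and 0.918 CPM of Ciita, and it had 0 counts of H2-Aa. In bulk samples such as these, more class II RNA per cell and more cells that carry class II cannot be told apart. The summed level of 10 B-cell markers was 254 CPM in TL35, 216 in TL16 and 135 in TL18, above the thymus range of 55.3 to 93.1 CPM, but 17.6 CPM in TL20. That of 10 conventional dendritic cell markers was 62.3 CPM in TL18, 51.5 in TL16 and 45 in TL35, above the thymus range of 26.4 to 35.4 CPM, and 23.9 CPM in TL20. That of 12 macrophage and monocyte markers was 659 CPM in TL20, 500 in TL18, 335 in TL16 and 300 in TL35, where all 21 lymphomas (196 to 874 CPM) were above the thymus range of 102 to 142 CPM. The part of these cells in the class II levels was not tested.

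The 3 class II chains, all inside the emptied stretch, had few counts. H2-Aa, the alpha chain of the I-A molecule, ranged from 0 through 1.04 to 2.65 CPM in mutated lymphomas and from 0.226 through 0.943 to 2.82 CPM in unmutated lymphomas, against 0.61, 1.22 and 3.51 CPM in Thy-1, Thy-2 and Thy-3. H2-Ab1, its beta chain, ranged from 0.16 through 0.93 to 3.61 CPM in mutated lymphomas and from 0.902 through 1.84 to 3.39 CPM in unmutated lymphomas, against 0.968, 4.15 and 0.84 CPM in thymus. H2-Eb1, the beta chain of the I-E molecule, ranged from 0.22 through 1.29 to 4.46 CPM in mutated lymphomas and from 0.989 through 1.79 to 4.59 CPM in unmutated lymphomas, against 4.23, 1.3 and 0.987 CPM in thymus. Each chain thus had its highest thymus level in a different library, H2-Eb1 in Thy-1, H2-Ab1 in Thy-2 and H2-Aa in Thy-3, and a single thymus library decided the sign of each log2 difference: without it, H2-Eb1 had 0.75, H2-Ab1 0.97 and H2-Aa 0.41, none past the threshold. The sum over the 3 chains was steadier in thymus, with 162, 169 and 146 counts. The log2 differences were -0.54 for H2-Aa (SE 0.75, adjusted p = 0.609), -0.16 for H2-Ab1 (SE 0.64, adjusted p = 0.871) and -0.17 for H2-Eb1 (SE 0.62, adjusted p = 0.858).

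Between the mutation sets, no member was called, where 5.38% of all tested genes were (edgeR). One of the 10 had an unadjusted p under 0.05, H2-K1; DESeq2 gave 2 such genes and also called 0. H2-K1 was higher by 1.14 on the log2 scale in mutated lymphomas than in unmutated lymphomas (SE 0.45, adjusted p = 0.132), and Nlrc5 by 1.12 (SE 0.59, adjusted p = 0.258). Without TL7 the differences were 0.61 (adjusted p = 0.347) and 0.53 (adjusted p = 0.584). The class II members and Ciita had differences of -0.64 to -0.12, with adjusted p of 0.444 to 0.924. For B2m the 95% interval of the difference ran from -0.54 to 0.39, so a change of 2-fold between the sets lay outside it. For Tap1 the interval ran from -0.74 to 0.73. Tap1 had few counts and lies in the emptied stretch, so its interval cannot bound a change in its RNA. The 2 sets overlapped for every member, and the sets of only 0.0305% of tested genes did not overlap.

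**Figure D3:**
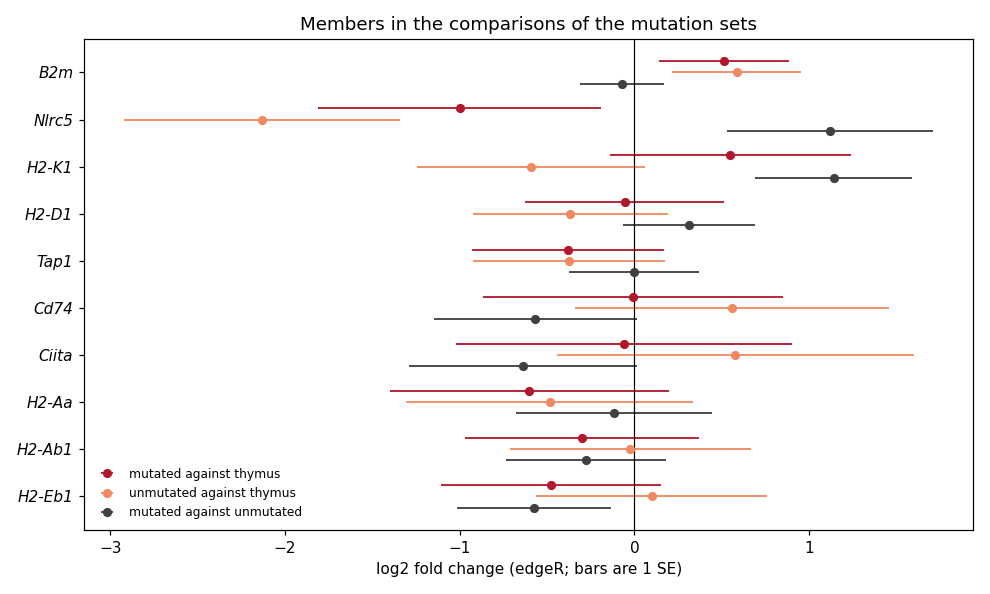
Log2 fold changes of the 10 genes (points) with 1 SE (bars) from the model of 3 groups: mutated lymphomas against thymus (red), unmutated lymphomas against thymus (orange) and mutated against unmutated lymphomas (grey). Nlrc5 in unmutated lymphomas, at -2.13, is the 1 value past the threshold.

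Across the 21 lymphomas, 6 of 8 members were correlated with their transactivator past the threshold. Pearson's r and Spearman's rho of log2(CPM + 1) were used, with permutation p-values adjusted over the 8 relations only (100000 resamples, two-sided). Cd74 followed Ciita with r = 0.88 and rho = 0.91, H2-Ab1 with r = 0.83 and rho = 0.87, H2-Eb1 with r = 0.73 and rho = 0.83, and H2-Aa with r = 0.71 and rho = 0.64. The same 6 passed by rho. The permutation p of r was 1.00e-05 for Cd74 and H2-Ab1, the smallest that these permutations can give, 0.00021 for H2-Eb1 and 0.0003 for H2-Aa (adjusted, 4.00e-05 for the first 2 and 0.0004 for the others). Among 13120 tested genes ranked by rho with Ciita, Cd74 stood at place 2, H2-Ab1 at place 7, H2-Eb1 at place 22 and H2-Aa at place 392. Genes in the same libraries share depth and cell makeup, so ranks are a description. How many of all tested genes would pass with each transactivator was not counted, so 6 of 8 cannot be called particular to these members. The points share those libraries, and Cd74 lies outside the emptied stretch, while the other 3 lie in it.

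On the class I side, H2-D1 followed Nlrc5 with r = 0.81 and rho = 0.71 (permutation p of r = 2.00e-05, adjusted 5.33e-05) and H2-K1 with r = 0.72 and rho = 0.69 (p = 0.00029, adjusted 0.0004). B2m did not pass, with r = 0.16 and rho = 0.32 (permutation p = 0.489 and 0.155), nor did Tap1, with r = -0.17 and rho = -0.19 (p = 0.469 and 0.402). Among 13120 tested genes ranked by rho with Nlrc5, H2-D1 stood at place 210, H2-K1 at 257, B2m at 2609 and Tap1 at 9177. Without TL7 and TL4, the 2 lymphomas farthest from the median of Nlrc5, r was 0.73 for H2-D1, 0.77 for H2-K1 and 0.09 for B2m. Without TL20 and TL16, the farthest for Ciita, r was 0.85 for Cd74, 0.83 for H2-Ab1, 0.73 for H2-Eb1 and 0.66 for H2-Aa, all past the threshold. In the 11 deeper lymphomas H2-K1 did not pass (r = 0.46, permutation p = 0.154, adjusted 0.206), and in the 10 shallower ones B2m did (r = 0.74, permutation p = 0.0059, adjusted 0.0118), splits chosen after the data were seen. By rho, H2-Aa passed in neither (adjusted p = 0.0884 and 0.0718) and H2-D1 not in the shallower ones (0.0837). Without the 3 lymphomas whose B-cell marker sum was above the thymus range, r was 0.85 for Cd74, 0.81 for H2-Ab1, 0.76 for H2-Eb1 and 0.59 for H2-Aa with Ciita; H2-Aa did not pass by rho there (0.48, adjusted p = 0.058).

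**Figure D4:**
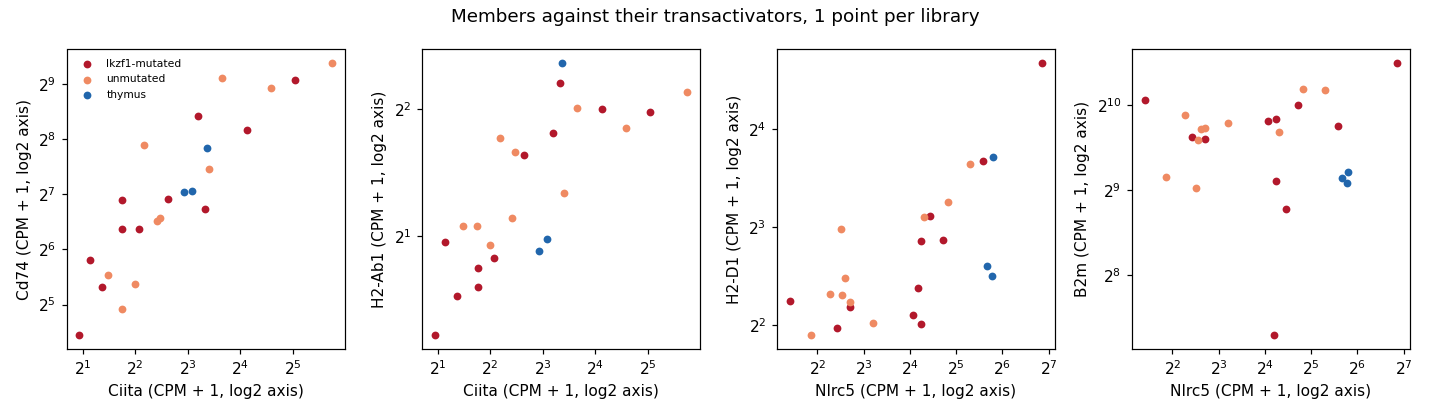
Cd74 and H2-Ab1 against Ciita, and H2-D1 and B2m against Nlrc5 (CPM + 1, log2 axes), 1 point per library: mutated lymphomas (red), unmutated lymphomas (orange) and thymus (blue). Over the 21 lymphomas r is 0.88 for Cd74, 0.83 for H2-Ab1, 0.81 for H2-D1 and 0.16 for B2m; the 3 thymus points were not used.

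The genes most like H2-Ab1 over the 21 lymphomas, by Spearman's rho of CPM, were Cpeb2 (0.91), Tmed4 and Prr13 (0.87), and Cela1 and Cdipt (0.86). Those most like H2-K1 were Cnbd2 (0.82), Igip (0.79), Trib1 (0.78) and Cysltr2 (0.77), with 1 numbered gene model in the fifth place. For Cd74, Napsa (0.95), Cd86 (0.92) and Wdfy4 (0.91) came first, and for Nlrc5, Oas1a (0.90), a gene of the interferon response; these lists for Cd74 and Nlrc5 were chosen after their values were seen. Among members, H2-Ab1 and H2-Eb1 had a rho of 0.82, H2-K1 and H2-D1 0.64, and Tap1 was within 0.28 of 0 with every other member. Some members also went together across the classes. Nlrc5 had a rho of 0.62 with Cd74, 0.54 with Ciita, 0.50 with H2-Ab1, 0.48 with H2-Aa and 0.31 with H2-Eb1. Ciita had a rho of 0.52 with H2-D1, 0.39 with B2m, 0.18 with H2-K1 and -0.23 with Tap1.

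Some other genes of the class I pathway were called higher than thymus, where no member was called. The log2 difference of the uncalled member B2m was 0.55, and that of Canx, which was called, 0.66. H2-K1, H2-D1 and Tap1 lie in the emptied stretch. Of 14 other class I pathway genes, all tested, 6 rose against thymus and none fell (15.4% of all tested genes rose). The median log2 difference was 0.62, against 0.07 for all genes. The risers were Psme3, a proteasome activator subunit, Erap1, the peptidase that trims peptides in the endoplasmic reticulum, and the chaperones Canx, Pdia3, Hspa5 and Calr of the same compartment. Psme3 had 237 to 414 CPM in lymphomas (median 308) against 163 to 222 CPM in thymus, and a log2 difference of 0.70 (SE 0.15, adjusted p = 0.00153). Hspa5 had a difference of 0.99 (SE 0.28, adjusted p = 0.011) and Erap1 of 0.73 (SE 0.16, adjusted p = 0.00186). The call was lost for Calr without any 1 of the thymus libraries (adjusted p of 0.0701 to 0.0904), and for Pdia3 and Hspa5 without Thy-1 or Thy-2 (0.0505 to 0.0691). Canx, Pdia3, Hspa5 and Calr serve the folding of many other proteins besides class I. The other proteasome activator genes of the list, Psme1 and Psme2, did not pass, nor did Psmb10 and Tapbpl. All of these lie outside the emptied stretch. The genes of the list that lie in the emptied stretch, Tap2, Tapbp, Psmb8 and Psmb9, did not pass over all lymphomas; Psmb8 rose in the unmutated set (log2 difference 0.78, SE 0.28, adjusted p = 0.0361), a call lost with limma-voom, with library totals, on both TPM scales, with that set and thymus fitted alone, and without any 1 thymus library, TL21 or TL32 (adjusted p of 0.0509 to 0.122).

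Other class I heavy chains fell or did not pass with edgeR. Of 23 counted, 9 were tested, and 3 fell and none rose (15.4% of all tested genes fell), with a median log2 difference of 0.21. H2-T23, which encodes Qa-1, a ligand of the NKG2A receptor, was the highest of them in thymus by mean TPM; in lymphomas it had a mean of 124 TPM and H2-T22 had 149 TPM. It had 36.1 to 190 CPM in mutated lymphomas (median 64.9) and 15.1 to 97.5 CPM in unmutated lymphomas (median 39.9), against 195, 264 and 195 CPM in thymus. All 21 lymphomas were below every thymus library, as they were for 7.93% of all tested genes. The log2 difference was -1.74 (SE 0.38, adjusted p = 0.00162, edgeR) over all lymphomas, -1.47 (adjusted p = 0.00965) in the mutated set and -2.12 (adjusted p = 0.00037) in the unmutated set, and between the sets 0.65 (SE 0.29, adjusted p = 0.18). In the mutated set the call was lost without Thy-2 (adjusted p = 0.0747).

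H2-T24 fell by 2.39 on the log2 scale (SE 0.60, adjusted p = 0.00439, edgeR), with 2.95 to 61.5 CPM in lymphomas (median 7.04) against 60.9, 64.8 and 59.1 CPM in thymus. TL7, the lymphoma with the highest Nlrc5, was again the highest, at 61.5 CPM, and H2-T24 had a rho of 0.87 with Nlrc5 over the 21 lymphomas. H2-Q4 fell by 1.10 (SE 0.38, adjusted p = 0.0286), a call that was lost without any of the 3 thymus libraries (adjusted p of 0.068 to 0.156); it lies in the emptied stretch, as does H2-Q10. H2-Q4 shares 22% of its 50-base stretches with other genes, H2-T23 15% and H2-T24 3.23%.

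H2-T3, which encodes the thymus leukaemia antigen, went the other way in many lymphomas without passing the test. It ranged from 0 through 37.5 to 123 CPM in mutated lymphomas and from 0 through 28.5 to 365 CPM in unmutated lymphomas, against 3.23, 2.13 and 2.59 CPM in Thy-1, Thy-2 and Thy-3. In 15 of 21 lymphomas it was above the thymus range, with TL31 highest, and in 6 it was below, with 0 counts in TL7 and TL18. The log2 difference was 4.37 (SE 2.03, adjusted p = 0.105, edgeR), and DESeq2 gave an adjusted p of 0.013. H2-Bl, annotated as a polymorphic pseudogene, and H2-Q10 did not pass with edgeR. DESeq2 called both higher (log2 differences of 4.74 and 3.01, adjusted p of 0.00331 and 0.0455), so that with DESeq2 these 3 heavy chains rose. For each of the 3, DESeq2 was the only 1 of 32 alternatives to call it. Thymus levels were near 0 for H2-Bl, at 0.0359 to 0.237 CPM, and for H2-Q10, with 3 counts over all thymus libraries.

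**Figure D5:**
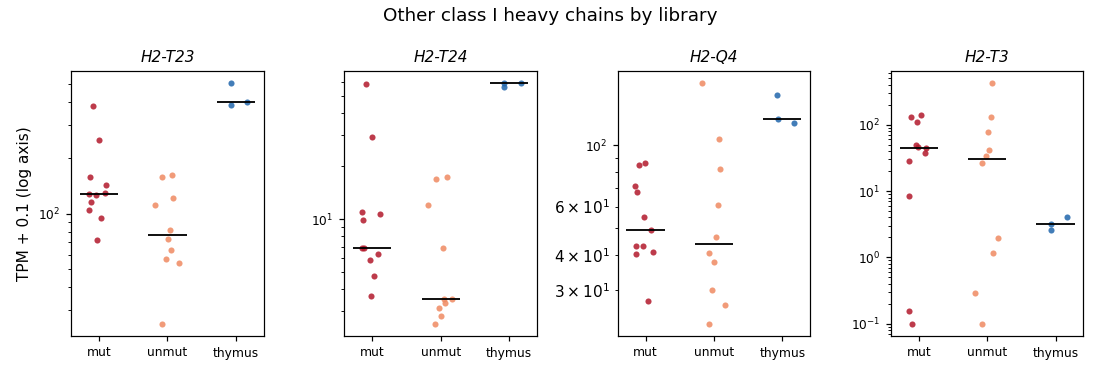
Level of 4 other class I heavy chain genes by library (TPM + 0.1, log axis) in 11 Ikzf1-mutated lymphomas (mut), 10 unmutated lymphomas (unmut) and 3 thymus libraries; bars are medians. H2-T23 lies below the thymus libraries in all 21 lymphomas, while H2-T3 lies above them in 15.

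Of 13 other class II pathway genes that were counted, 9 were tested, and 2 rose and 1 fell, a share near the 30.8% of all tested genes called, with a median log2 difference of 0.58. Lgmn, an endosomal protease, rose by 2.01 on the log2 scale (SE 0.41, adjusted p = 0.000878, edgeR), with 21.4 to 91.6 CPM in lymphomas (median 35.4) and 9.06 to 11.6 CPM in thymus. Ctsl, a protease that thymic epithelium uses to process the invariant chain, fell by 2.47 (SE 0.45, adjusted p = 0.000289); it also stands in the list of thymic epithelium markers, of which 8 of 11 tested fell, itself included. The other 11 listed genes, without Ctsl, summed to 2.19 to 41 CPM in lymphomas (median 9.09) and 31.9 to 75.6 CPM in thymus. H2-Eb2 passed (adjusted p = 0.0433) with only 1 to 2 counts per thymus library against 1 to 128 per lymphoma, and its call was lost in 11 of 32 alternatives, among them those without any 1 thymus library or without TL15, TL22, TL30 or TL32. H2-Ea-ps, the alpha chain gene of the I-E molecule, is not functional in H-2b mice and is intact in C3H. It ranged from 0.0443 through 0.477 to 5.06 CPM in mutated lymphomas and from 0 through 0.681 to 17.1 CPM in unmutated lymphomas, against 0.251, 1.46 and 0.183 CPM in thymus, and its log2 difference was 1.74 (SE 1.56, adjusted p = 0.416). TL20 and TL18, which led in Cd74, also led here, at 17.1 and 9.78 CPM. H2-DMa and Cd86 did not pass. H2-Eb2, H2-Ea-ps and H2-DMa lie in the emptied stretch.

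Of 18 regulators, all tested, 2 rose and 4 fell against thymus, with a median log2 difference of -0.28; over all tested genes 15.4% rose and 15.4% fell, so the share called, 6 of 18, is near the 30.8% of all tested genes. Rfxank, a subunit of the RFX complex that binds the X box of both classes, fell by 1.22 on the log2 scale (SE 0.17, adjusted p = 1.67e-05, edgeR). It had 13.1 to 31.2 CPM in lymphomas (median 19.7) and 40.9 to 56 CPM in thymus, with no overlap. Of all tested genes, 7.93% were likewise lower in every lymphoma than in every thymus library. The receptor chains for interferon gamma, which induces both classes, fell too: Ifngr1 by 1.42 (SE 0.30, adjusted p = 0.00118) and Ifngr2 by 1.08 (SE 0.33, adjusted p = 0.017). Irf2 fell by 0.52 (SE 0.19, adjusted p = 0.0391), while Nfkb1 rose by 0.77 (SE 0.24, adjusted p = 0.0163) and Dnmt1 by 0.59 (SE 0.22, adjusted p = 0.0387). These 3 calls and that of Ifngr2 were lost without Thy-1 or Thy-2 (adjusted p of 0.0556 to 0.249), those of Irf2 and Nfkb1 also without Thy-3 (0.106 and 0.0557), and that of Irf2 without TL30 (0.0513). Irf2 was also not called without the filter on low counts (adjusted p = 0.0675), nor Dnmt1 with limma on log2(TPM + 1) and log2(TPM + 0.1) (0.0755 and 0.0733). The other subunits of RFX, Rfx5 and Rfxap, did not pass.

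Libraries held 15 to 36.6 M counts in lymphomas and 24.5 to 27.5 M in thymus (M, 1e6). Among markers of cells that carry class II, those of macrophages and monocytes rose. The summed level of 12 macrophage and monocyte markers was 196 to 874 CPM in lymphomas and 102 to 142 CPM in thymus, and 10 of the 12 rose. Over all tested genes 15.4% rose and 15.4% fell. Of 11 thymic epithelium markers tested, 8 fell and none rose. Of 9 conventional dendritic cell markers tested, Itgae fell and none rose, and of 10 B-cell markers none was called. The sum of 10 conventional dendritic cell markers was 2.63 to 68.6 CPM in lymphomas (median 17.3) and 26.4 to 35.4 CPM in thymus, with Clec10a at 0 in the mutated set and in thymus, and that of 10 B-cell markers was 3.34 to 254 CPM in lymphomas (median 23.6) and 55.3 to 93.1 CPM in thymus. Of 6 plasmacytoid dendritic cell markers, Siglech and Klk1 fell and none rose. Their sum was 93.2 to 1380 CPM in lymphomas and 1120 to 1260 CPM in thymus, of which Ccr9, a gene that thymocytes also express, made up 87.9 to 91.7% in thymus; without it the sum was 59.4 to 304 CPM in lymphomas and 105 to 141 CPM in thymus. The sum of 8 T-lineage markers was 2290 to 4800 CPM in lymphomas and 6020 to 6990 CPM in thymus, and 5 of the 8 fell. The part of these cells in the class II values was not tested.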

How the data were processed

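Reads were handled on GRCm38.p6 with HISAT2 2.0.1, HTSeq 0.6.1, cutadapt 1.9.1 and SAMtools, per the submitters' processing notes, which give no settings here. The authors deposited unnormalized counts per gene symbol for 24 libraries. They also deposited the TPM of each gene, with column sums of 992064 to 995591 and 1 repeated symbol. All libraries have 1 batch date. Each lymphoma's mutation set is that of the filtered count table, of 2, whose columns hold it; a further CPM table was not used.

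The test was edgeR 4.0.16 under R 4.3.3 (TMM, filterByExpr, glmQLFit, glmQLFTest; Benjamini-Hochberg over 13121 genes, threshold 0.05), with all lymphomas against thymus in 2 groups and the sets in a model of 3 groups. SE is log2 fold over the square root of F. The script was tested on simulated data. Alternatives used DESeq2 1.42.0 and limma 3.58.1. Correlations, promoter matches and shared stretches (GENCODE M21 transcripts) were computed in Python 3.11.15. The members and lists were chosen with earlier results of these data known. By rule the text names the members, up to 6 genes per list with the smallest p against thymus, H2-Ea-ps, the heavy chain highest in TPM, and the 5 genes most like H2-K1 and H2-Ab1; other names were chosen after their values were seen. Intervals are 1.96 SE either side. Genes with few counts have wide intervals.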

Additional observations from a re-analysis of the deposited data

Results flagged for a closer look

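Ciita in the unmutated lymphomas had 1 library far from the others on the CPM scale. TL20 had 52.5 CPM, and its gap to the next library, TL35 at 22.9 CPM, was 0.584 of the range of the 10 unmutated lymphomas, past Dixon's 95% limit for 10 samples. Chance alone passes that limit in about 1 of 20 groups of normally distributed values, and this group is named because it passed. The lowest of the 10 was TL31, at 1.8 CPM. The gap was measured on CPM and was not tested on a log scale, so the flag holds for the CPM scale only. TL20 also had the highest Cd74, at 662 CPM, and the highest H2-Ea-ps, at 17.1 CPM. Its summed B-cell markers were 17.6 CPM, against 55.3 to 93.1 CPM in thymus. Its conventional dendritic cell markers summed to 23.9 CPM, against 26.4 to 35.4 CPM. Its macrophage and monocyte markers summed to 659 CPM, against 102 to 142 CPM in thymus, a range that every lymphoma exceeded. TL19 had the highest such sum, 874 CPM, with 3.52 CPM of Ciita. The part of other cells was not tested.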

How the results depend on the processing

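Counts of called genes among the 10 members changed as follows: against thymus, 1 with limma-voom, with log2(TPM + 1) and with log2(TPM + 0.1) in place of 0; in the mutated set 1 with limma-voom in place of 0; in the unmutated set 2 when that set and thymus were fitted alone, B2m and Nlrc5, in place of 1. Leaving out 1 library at a time gave 0 to 1 in all lymphomas (1 without TL7) and in the unmutated set. Between the sets 706 genes were called, 1269 with DESeq2, 365 with the lymphomas alone and 318 to 1225 leaving out 1 library. All lymphomas gave 1946 to 4426 calls leaving out 1 library (4044 with all), the mutated set 1445 to 3904 (3412) and the unmutated set 2882 to 4895 (4642), lowest each time without Thy-2.

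Signs of uncalled log2 differences turned in some settings; the cause was not tested. Against thymus, H2-K1, Cd74 and Ciita became -0.34, -0.35 and -0.54 with limma-voom, -0.34, -0.43 and -0.30 with log2(TPM + 1), and -0.44, -0.44 and -0.60 with log2(TPM + 0.1), and H2-K1 -0.02 in the model of 3 groups. Cd74 in the mutated set became 0.01 with DESeq2 size factors and with DESeq2, 0.04 without the filter and 0.02 with the set and thymus alone. In the unmutated set, H2-Ab1 became 0.29, 0.01, 0.04 and 0.09 with limma-voom, no filter, log2(TPM + 1) and log2(TPM + 0.1), Cd74 -0.14 with limma-voom, -0.28 and -0.29 with the 2 TPM scales, and Ciita -0.16, -0.15 and -0.36 with the same 3. Tap1 between the sets became 0.00 with DESeq2 size factors, 0.02 with library totals, 0.01 without the filter, 0.00 with log2(TPM + 1) and 0.01 with the lymphomas alone.

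Leaving out 1 library, log2 differences against thymus ran over all lymphomas from -0.26 to 0.20 for H2-K1, -0.44 to 0.39 for H2-D1, -0.95 to 0.41 for H2-Aa, -0.53 to 0.97 for H2-Ab1, -0.52 to 0.75 for H2-Eb1 and -0.10 to 0.43 for Ciita. In the mutated set they ran from -0.47 to 0.53 for H2-D1, -1.01 to 0.36 for H2-Aa, -0.66 to 0.83 for H2-Ab1, -0.82 to 0.45 for H2-Eb1, -0.38 to 0.31 for Cd74 and -0.63 to 0.09 for Ciita. In the unmutated set they ran from -0.61 to 0.21 for H2-D1, -0.89 to 0.47 for H2-Aa, -0.39 to 1.10 for H2-Ab1, -0.25 to 1.02 for H2-Eb1 and -0.14 to 0.74 for Ciita. Between the sets they ran from 0.61 to 1.29 for H2-K1 and 0.53 to 1.53 for Nlrc5, both lowest without TL7, -0.10 to 0.49 for H2-D1, -0.19 to 0.04 for B2m, -0.38 to 0.12 for Tap1, -0.31 to 0.09 for H2-Aa and -1.21 to 0.08 for Ciita. The 6 of 8 relations with the transactivators were, by r, 6 in TPM, 6 without the 2 farthest lymphomas, 5 and 7 in the deeper and shallower lymphomas and 6 without the 3 lymphomas high in B-cell markers; by rho they were 6 in TPM and 4, 5 and 5 in the last 3 of these. No paired analysis was made, because the labels do not pair any lymphoma with a thymus sample.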
